A study of Mus musculus with 2 samples.

Results

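The genes described here handle fatty acids inside the cell. They were chosen by gene name, in a rule set when earlier results of these data were known. All single-symbol probe sets of the acyl-CoA synthetase (Acsl, Acsbg, Acsm, Acss), elongase (Elovl), desaturase (Fads, Scd), fatty acid binding protein (Fabp), perilipin (Plin), acyl-CoA thioesterase (Acot), Dgat, Agpat and Lpin families were taken, together with Fasn, Acaca, Acacb, Lipe, Pnpla2 and the carnitine palmitoyltransferases. This gave 139 of the 45101 probe sets on the array and 70 of the 18193 genes with a name. All 70 symbols had the same spelling in a RefSeq gene table when matched by Entrez gene ID.

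A free fatty acid enters metabolism after an acyl-CoA synthetase has joined it to coenzyme A. The acyl-CoA can be lengthened by elongases, given double bonds by desaturases, built into phospholipids and triglycerides, stored in droplets coated by perilipins, or carried into mitochondria for oxidation, and thioesterases release the free acid again. In cells that make steroid hormones, lipid droplets hold cholesterol esterified to fatty acids, and these esters are a source of substrate for the hormones.

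The study compared ovaries of mice at 2 days of age. The control pool was Amhr2(+/+)-SmoM2 and the mutant pool Amhr2(cre/+)-SmoM2, so both carried the SmoM2 allele, an activated form of Smoothened that switches on hedgehog signalling once Cre has acted. Cre is expressed from the Amhr2 locus, which is active in somatic cells of the gonad, and the mutant therefore differed from the control in Cre, in 1 copy of Amhr2 and in SmoM2 activation, which cannot be told apart. Each pool held RNA from 8 mice and was hybridised to 1 array, so no value below has a replicate error and no test between the pools was possible.

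Each value is the signal intensity of a probe set, not log transformed. A probe set was taken as measured when the higher of its 2 signals reached 80.7, the median of all values. Log2 ratios are of mutant over control with a pseudocount of 22.2 (the 25th percentile over both arrays), which understates the difference of dim genes. Folds are plain ratios of signals, and where 1 signal lay under 80.7 the brighter was divided by 80.7 and the fold is a lower bound. Counts of genes at a fold use the log2 ratio and not this bound. Where a gene had several measured probe sets, the brightest on average stands for it. The only error that could be measured was the spread between probe sets of the same gene, with an SD of 0.38 on the log2 ratio over 5118 genes and of 0.60 over the 19 members with more than 1 measured probe set.

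All 10 listed oocyte markers and all 9 pregranulosa markers were measured, as the label of ovary tissue implies, and the pools differed in their levels. In bulk tissue, fewer cells of a type and less RNA per cell cannot be told apart. The summed signal of the oocyte markers was 41909 in control and 26366 in mutant ovaries, and that of the pregranulosa markers, Amhr2 among them, was 38842 and 28139. Amhr2, in which the mutant differs by 1 copy through its genotype, made up 8591 and 3485.5 of the pregranulosa sums. Of the 9 pregranulosa markers, 8 had ratios below 0 and 1 above, beside 6456 and 5848 of all 12308 measured genes. The 9 stromal markers summed to 84750 and 121047, and the 9 leukocyte markers to 5164 and 8399. The 10 endothelial markers summed to 3225 and 4075, and the 5 red cell markers with a probe set, of 7 listed, to 2729 and 1285. Of 6 listed markers of steroid-making cells, 4 had a named probe set. All 4 were at least 2-fold higher in the mutant, beside 3.21% of all measured genes. The sum of the 4 was 6172 in control and 39942 in mutant ovaries. Cyp17a1 (38.8 and 7532) and the brighter Cyp11a1 probe set (29.6 and 5700) passed the minimum only through the mutant pool. They could not have appeared as anything but higher. The 8 adipocyte markers with a probe set, of 10 listed and with the members Fabp4 and Lipe among them, summed to 204 and 109, and all of them, the fat hormone genes Adipoq and Lep included, lay below the minimum in control and mutant alike. The part that these differences have in the results below was not tested. The ratio of 3′ to 5′ signal, a sign of RNA quality, was 8.48 in control and 10.5 in mutant ovaries for beta-actin and 3.28 and 4.98 for Gapdh.

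Of the 70 genes, 48 were measured. Among these, 13 (27.1%) were at least 1.5-fold higher in the mutant pool, where 9.32% of all 12308 measured genes were, and 3 (6.25%) were at least 1.5-fold lower, where 7.9% of all measured genes were. At 2-fold the members counted 7 higher (14.6%) and 0 lower, against 3.21% and 1.4% of all measured genes. The median log2 ratio of the 48 was 0.27, and that of all measured genes was -0.02. For 46 of the 48, both signals reached the minimum. Acsl6 and Fabp7 passed only through the mutant pool, so they could not have appeared as anything but higher. Over the 46 the median was 0.25, with 11 genes at least 1.5-fold higher (23.9%, beside 7.18% of all genes under the same filter) and 3 lower (6.52%, beside 6.4%). When each gene was given the mean over its measured probe sets, 4 members were at least 2-fold higher (8.33%, beside 2.78% of all genes). With its dimmest measured probe set in place of the brightest, 6 were at least 1.5-fold lower (12.5%, beside 12.1%). Among these 6, the Scd1 probe set passed the minimum only through the control pool. Counted by probe set, 20 of 74 were at least 1.5-fold higher and 6 lower, beside 8.79% and 10.3% of all measured probe sets, and 13 were at least 2-fold higher and 0 lower, beside 2.9% and 2.29%.

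**Figure D1:**
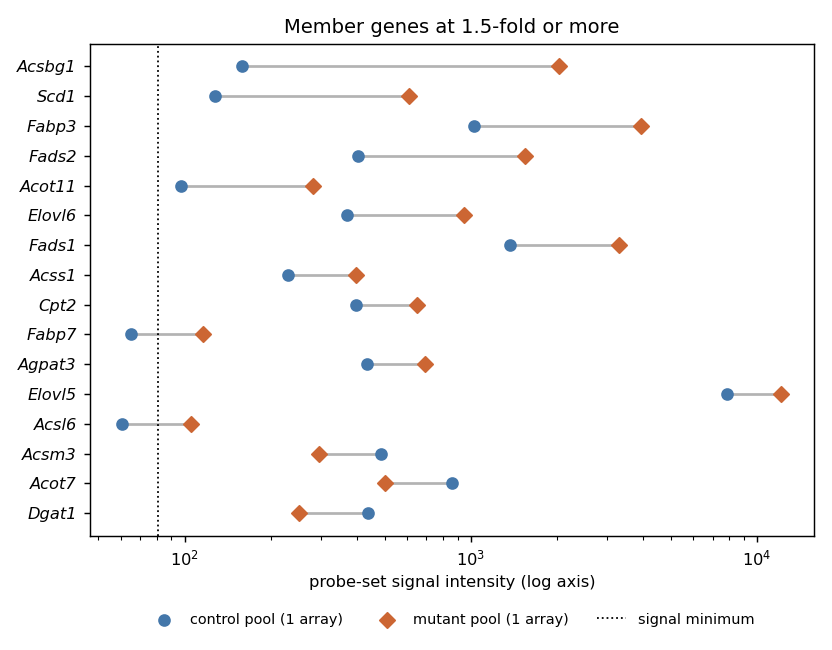
Signals in the control pool (circles) and the mutant pool (diamonds), on a log axis of signal intensity, for the 16 members at 1.5-fold or more, 1 array per pool and no error bars. The 13 upper genes had the brighter signal in the mutant pool and Acsm3, Acot7 and Dgat1 in the control pool; the control signals of Fabp7 and Acsl6 lay under the minimum of 80.7 (dotted line).

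**Figure D2:**
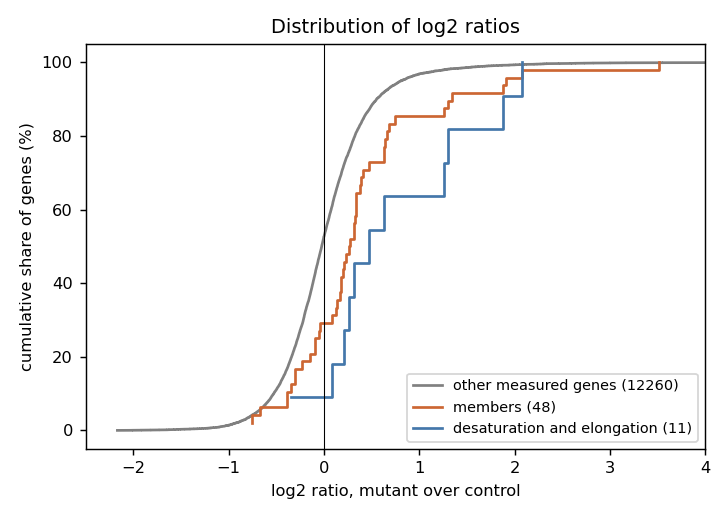
Cumulative share of genes (vertical axis, percent) at or below each log2 ratio (horizontal axis) for the 48 measured members, the 11 desaturation and elongation genes among them, and the other 12260 measured genes. The curve of the members lies to the right of the curve of the other genes over most of its length, with medians of 0.27 and -0.02.

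Among the desaturases, Fads2 and Fads1 were higher in the mutant pool, and Scd1, Fads3 and Scd2 gave opposite directions on different probe sets. By the brightest probe sets the 6 measured members had a median log2 ratio of 0.86. Of the 6, 3 were at least 2-fold higher and 0 lower, beside 3.21% and 1.4% of all measured genes. The median was 0.28 with the mean over each gene's probe sets and -0.32 with the dimmest ones. With the dimmest ones 1 gene (Fads2) was 2-fold higher, beside 3.18% of all genes in that setting. The dimmest probe sets of Scd1 and Fads6 passed the minimum only through the control pool. Fads2 (Entrez gene 56473) encodes the desaturase that opens the synthesis of long polyunsaturated fatty acids. Its signal was 405 in control and 1553 in mutant ovaries, 3.84-fold higher. Further probe sets of Fads2 read 141 and 512, and 85.4 and 250.5, so all of its probe sets were more than 2-fold higher in the mutant. Fads2 was the only member with more than 1 measured probe set in which every one of them was at least 1.5-fold higher.

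Fads1 (76267), the desaturase that acts after Fads2 in the same pathway, read 1372 in control and 3308 in mutant ovaries, 2.41-fold higher. Its second probe set differed less, at 177 and 201. Fads3, which lies next to Fads2 and Fads1 in the RefSeq gene order, read 268 and 380.5 on its brighter probe set and 165 and 101 on the other, with log2 ratios of 0.47 and -0.60. The probe sets of Fads3 therefore disagreed in direction.

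Scd1 (20249) encodes stearoyl-CoA desaturase, which turns saturated into monounsaturated fatty acids. Its brighter probe set read 127 in control and 609.9 in mutant ovaries, 4.79-fold higher. The other probe set went the opposite way, at 142 in control and 65.5 in mutant ovaries, at least 1.76-fold lower. It passed the minimum only through the control pool, so it could not have appeared as anything but lower. The direction of Scd1 thus rests on which probe set is read. Scd2, the form that is prominent in brain and in young animals, read 10075 and 12123 (log2 ratio 0.27) on its brighter probe set and 181 and 141 (-0.31) on a dimmer one. Fads6 had log2 ratios of 0.08 and -0.33, and its second probe set passed the minimum only through the control pool.

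Among the elongases, 4 of 5 measured genes had ratios above 0, beside 5848 of all 12308 measured genes, and the median was 0.31. Elovl6 (170439), which extends saturated and monounsaturated chains made by fatty acid synthase, read 371 in control and 945 in mutant ovaries, 2.55-fold higher. A second probe set of Elovl6 read 230 and 307, a log2 ratio of 0.39. Elovl5, the elongase that works between the Fads2 and Fads1 steps, was bright in both pools, at 7847 and 12186 (1.55-fold higher), and its second probe set read 5491 and 7920.5 (1.44-fold). Both probe sets of Elovl5 were thus higher by similar amounts. Elovl1 and Elovl4 had log2 ratios of 0.31 and 0.21. Elovl2, an elongase of very long polyunsaturated chains, was at -0.34, with signals of 362 and 280.4.

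Over desaturases and elongases together, 10 of 11 measured genes had ratios above 0, with a median of 0.47, 5 genes at least 1.5-fold higher and 0 lower, beside 9.32% and 7.9% of all measured genes. With the dimmest measured probe set of each gene, 6 of the 11 lay above 0 and the median was 0.16, beside -0.07 for all genes in that setting. Then 2 genes (Fads2 and Elovl1) were at least 1.5-fold higher and 2 (Scd1 and Fads3) lower, beside 9.91% and 12.1% of all genes. The Elovl1 probe set passed the minimum only through the mutant pool and the Scd1 probe set only through the control pool. By the brightest probe sets, the other 37 measured members had a median of 0.20, with 8 at least 1.5-fold higher (21.6%) and 3 lower (8.11%). The genes of fatty acid synthesis itself differed less: Fasn, the synthase, read 1092 in control and 1455 in mutant ovaries (log2 ratio 0.41), and Acaca and Acacb, the acetyl-CoA carboxylases, had 0.34 and -0.14.

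**Figure D3:**
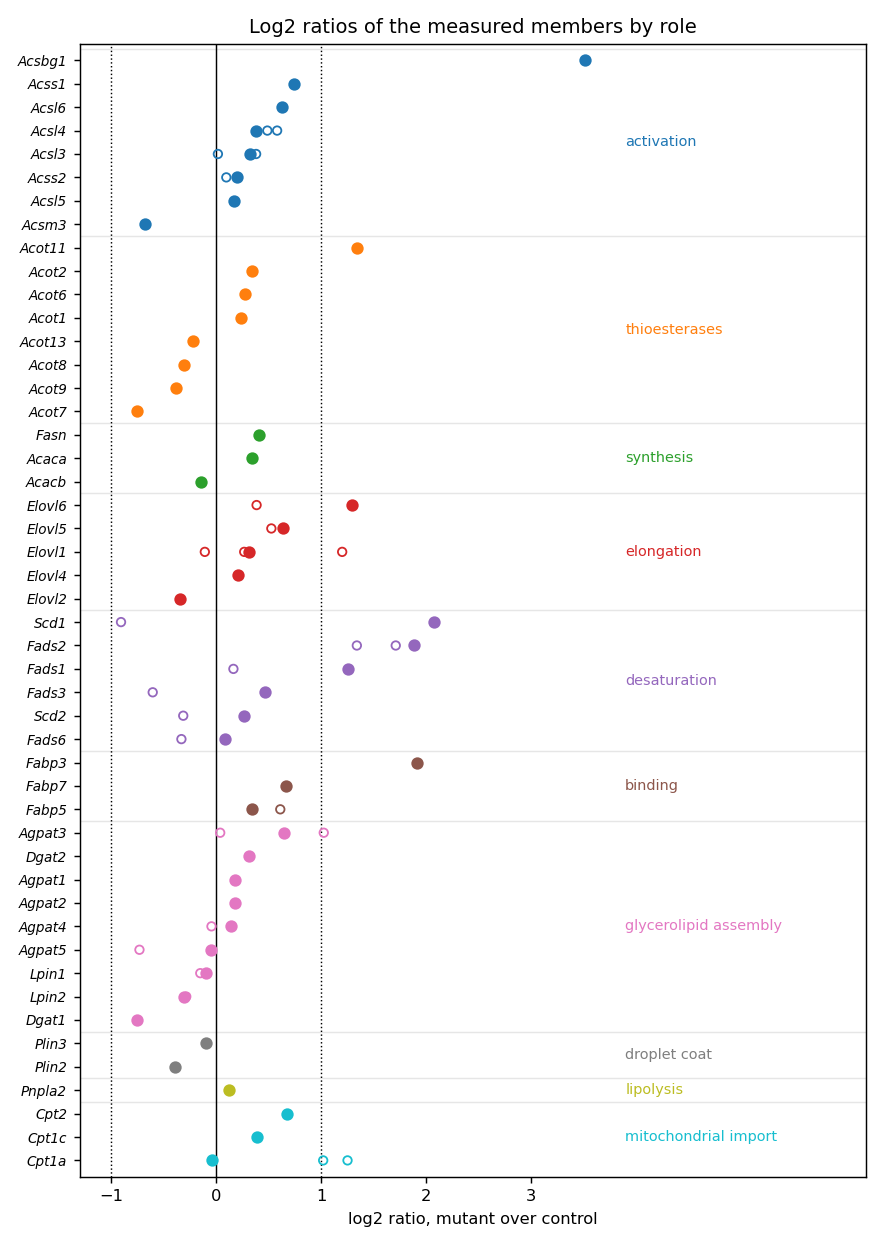
Log2 ratios of mutant over control (horizontal axis) for all 48 measured members, grouped by role. Filled points are the probe set that represents the gene, open circles its other measured probe sets, and dotted lines mark 2-fold. Acsbg1 stands at 3.51, and the open circle of Scd1 at -0.91 lies opposite to its filled point at 2.08.

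Fatty acid activation held the member with the highest ratio. Acsbg1 (94180) belongs to the bubblegum family of acyl-CoA synthetases, which act on long and very long chains and are known from brain, adrenal gland and gonads. Its only probe set read 158 in control and 2040.3 in mutant ovaries, 12.9-fold higher. No second probe set was there to set beside it. Its relatives Acsbg2 and Acsbg3 stayed under the minimum, with no signal above 42.3. Of 8 listed markers of glia and Sertoli cells, 6 had a named probe set and 3 were measured. Sox10 and Gfap (glia) and Amh (Sertoli cells) stayed under the minimum in both pools. Dhh, on the same list and above the minimum in both pools, was 274 in control and 237 in mutant ovaries. S100b (68.9 and 162) and Sox9 (53.0 and 141) passed the minimum only through the mutant pool. Which cells carried the Acsbg1 signal was not tested.

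The other synthetases differed less. Acss1, the mitochondrial enzyme that activates acetate, read 229 in control and 398.5 in mutant ovaries, 1.74-fold higher. Its cytosolic counterpart Acss2 had log2 ratios of 0.20 and 0.10. Acsl6, a long-chain synthetase best known from nervous tissue, was dim, at 60.7 and 106, and at least 1.31-fold higher. Acsl4, which prefers arachidonic acid and is known from steroid-making cells, had log2 ratios of 0.38 and 0.49 on its brighter probe sets. Another, with 0.58, passed the minimum only through the mutant pool. Acsl3 and Acsl5 had 0.32 and 0.17. Acsm3, a medium-chain synthetase of mitochondria, was the exception, at 485 in control and 295.5 in mutant ovaries, 1.64-fold lower. Acsm3 was also the only synthetase of 8 measured with a ratio under 0.

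The thioesterases went both ways, with 4 of 8 measured genes above 0 and a median of 0.01. Acot11 (329910), a long-chain thioesterase known from brown fat in mice, read 97.2 in control and 281 in mutant ovaries, 2.89-fold higher, and its other probe set was under the minimum. Acot7, a cytosolic thioesterase abundant in brain, read 858 and 501, 1.71-fold lower. Acot1, Acot2 and Acot6, which lie next to each other in the genome together with the dim Acot3, Acot4 and Acot5, had log2 ratios of 0.24, 0.34 and 0.27. Acot1 and Acot2 are near-identical copies, and their signals cannot be fully told apart; 1 probe set that names both read 277 in control and 254 in mutant ovaries. Acot13, Acot8 and Acot9 had -0.22, -0.30 and -0.38.

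Fatty acid binding proteins carry fatty acids through the cytosol. Fabp3 (14077), the heart-type form, read 1027 in control and 3925 in mutant ovaries, 3.82-fold higher, and its other probe set was too dim to use, at 29.3 and 5.3. Fabp5, the epidermal form, was bright in both pools (5917 and 7506, log2 ratio 0.34) and had 0.61 on a second probe set. Fabp7, the brain form, read 65.1 and 116, at least 1.44-fold higher. Fabp4, the form of fat cells, macrophages and capillaries, stayed under the minimum on all of its probe sets, with no signal above 38.9, as did Fabp1, Fabp2, Fabp6, Fabp9 and Fabp12.

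Of the 9 measured genes of glycerolipid assembly, 1 was at least 1.5-fold higher and 1 lower (11.1% each). Of all measured genes, 9.32% were higher and 7.9% lower by as much. The median of the 9 was 0.14. Dgat1, which adds the last fatty acid to triglyceride, read 438 in control and 251 in mutant ovaries, 1.75-fold lower. Dgat2, an unrelated enzyme of the same step, read 311 and 392, a log2 ratio of 0.31. Agpat3, an acyltransferase of phospholipid synthesis, was 435 and 692 (1.59-fold higher) on its brightest probe set. Its other measured probe sets read 281.5 and 289.8, and 43.4 and 111, with log2 ratios of 0.04 and 1.03. The dimmer of them passed the minimum only through the mutant pool. Agpat1, Agpat2 and Agpat4 had 0.18, 0.18 and 0.14. Agpat5 had -0.05 on its brightest probe set (1516.5 and 1468) and -0.73 on one nearly as bright (1394 and 831, 1.68-fold lower). Lpin1 and Lpin2, phosphatidate phosphatases, had -0.10 and -0.30.

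Neither measured perilipin was higher in the mutant pool. Plin2, the perilipin found on droplets of most cells, read 2749 in control and 2092 in mutant ovaries, a log2 ratio of -0.39, and Plin3 had -0.09. Plin4 and Plin5 were under the minimum. Of the lipases that empty the droplet, Pnpla2 had a log2 ratio of 0.13, and Lipe, which also cleaves cholesterol esters in steroid-making cells, read at most 57.0 on its probe sets and was not measured. For mitochondrial import, Cpt2 read 399 in control and 652 in mutant ovaries, 1.63-fold higher, and Cpt1c had a log2 ratio of 0.39. Cpt1a, which sets the rate of import in many tissues, depended on the probe set. Its brightest one read 889 and 862 (log2 ratio -0.04), while the others, singled out after their values were seen, read 463 and 1134, and 95.5 and 217, with ratios of 1.25 and 1.02.

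The 22 members that were not measured had signals between 0.6 and 79.6. Besides those named above they were Acot12, Acsm1, Acsm2, Acsm5, Elovl3, Elovl7, Lpin3 and Scd3.

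Promoter sequences from RefSeq (GRCm38.p6), 250 bases before to 50 after an annotated start, were given for 56 of the 70 members, 5 of them among the 7 genes at 2-fold. They are shown for those 5 because each was at least 2-fold higher in the mutant pool by its brightest probe set. Fads1 and Scd1 are named only. Capitals mark the letters of the motifs searched on both strands, and Acot11 has 2 annotated starts.
Acsbg1, chr9:54661836-54662135, minus strand: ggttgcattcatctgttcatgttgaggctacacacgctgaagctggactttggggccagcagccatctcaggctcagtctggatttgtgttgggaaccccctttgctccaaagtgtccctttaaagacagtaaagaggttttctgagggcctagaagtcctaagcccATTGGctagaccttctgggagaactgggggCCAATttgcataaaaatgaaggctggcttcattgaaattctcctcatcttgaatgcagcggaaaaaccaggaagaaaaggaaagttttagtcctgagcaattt
Fabp3, chr4:130308488-130308787, plus strand: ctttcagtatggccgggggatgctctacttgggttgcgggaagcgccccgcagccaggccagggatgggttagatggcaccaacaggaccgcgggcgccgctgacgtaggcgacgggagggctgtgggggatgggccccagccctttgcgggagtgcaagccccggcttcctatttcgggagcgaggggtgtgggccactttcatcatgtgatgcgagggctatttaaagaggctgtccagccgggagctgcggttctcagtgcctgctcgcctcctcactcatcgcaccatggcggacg
Fads2, chr19:10101454-10101753, minus strand: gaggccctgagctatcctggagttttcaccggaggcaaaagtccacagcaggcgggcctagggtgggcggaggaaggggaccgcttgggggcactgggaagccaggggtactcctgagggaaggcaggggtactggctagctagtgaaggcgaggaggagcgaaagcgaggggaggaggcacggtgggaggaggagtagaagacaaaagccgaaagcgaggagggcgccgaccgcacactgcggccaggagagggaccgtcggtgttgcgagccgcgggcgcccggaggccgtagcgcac
Acot11, chr4:106799782-106800081, minus strand: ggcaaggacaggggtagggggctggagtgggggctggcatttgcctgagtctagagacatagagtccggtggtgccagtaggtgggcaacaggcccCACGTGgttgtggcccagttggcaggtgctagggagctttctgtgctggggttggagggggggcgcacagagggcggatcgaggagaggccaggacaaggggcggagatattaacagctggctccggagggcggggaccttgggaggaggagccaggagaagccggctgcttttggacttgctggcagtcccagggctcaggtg
Acot11, chr4:106804958-106805257, minus strand: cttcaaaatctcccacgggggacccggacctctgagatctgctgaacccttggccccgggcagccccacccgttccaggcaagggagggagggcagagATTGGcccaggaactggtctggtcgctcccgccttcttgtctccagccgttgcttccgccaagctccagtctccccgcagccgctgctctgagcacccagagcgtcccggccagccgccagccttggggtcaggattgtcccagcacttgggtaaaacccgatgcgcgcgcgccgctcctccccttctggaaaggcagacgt
Elovl6, chr3:129532136-129532435, plus strand: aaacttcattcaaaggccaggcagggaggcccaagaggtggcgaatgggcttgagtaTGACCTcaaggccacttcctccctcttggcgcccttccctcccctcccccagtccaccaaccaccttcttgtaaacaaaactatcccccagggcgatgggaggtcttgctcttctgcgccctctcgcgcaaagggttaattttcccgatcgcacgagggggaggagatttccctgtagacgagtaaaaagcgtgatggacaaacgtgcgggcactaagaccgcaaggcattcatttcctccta

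The search covered the GLI core (GACCACCCA), an NR5A1 site (TCAAGGTCA), the nuclear receptor half-site AGGTCA that it contains, a sterol regulatory element (TCACNCCAC), the E-box letters CACGTG, the promoter element CCAAT and the TATA box letters TATAAA. None of the 5 genes had the GLI core, NR5A1, sterol or TATAAA letters in these windows. The CCAAT letters were in the windows of Acsbg1, with 2 matches, and of Acot11, while Elovl6 had 1 half-site and Acot11 1 E-box. Across the 56 members with a promoter, 58.9% had CCAAT, 32.1% the half-site and 16.1% the E-box, against 41.1%, 18.1% and 8.09% of 27025 genes. The GLI core was in 0 of the 56 and in 0.289% of all genes, the sterol letters in 1.79% and 1.44%, the NR5A1 letters in 1.79% (Acsl6) and 0.466%, and TATAAA in 10.7% and 15.7%. The median GC content was 58.5% for member promoters and 52.7% for all, and its part in these shares was not tested.

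Other genes of the pathway, from lists chosen by function, were set beside the members. In the rest of fatty acid synthesis and elongation, 10 of 14 measured genes had ratios above 0, beside 5848 of all 12308 measured genes. The median was 0.37. Of the 14, 2 were at least 1.5-fold higher (14.3%) and 1 lower (7.14%), beside 9.32% and 7.9% of all measured genes. A difference of 2-fold was reached by 1 gene (7.14%, beside 3.21% of all measured genes at 2-fold higher). This was Me1 (malic enzyme, which supplies NADPH), at 2397 in control and 5992 in mutant ovaries. Its second probe set had a log2 ratio of 1.23. Acly, which makes cytosolic acetyl-CoA, was 1.68-fold higher on its brightest probe set, with others from -0.11 to 0.76, Oxsm had a log2 ratio of 0.50, and Olah, a thioesterase that releases medium chains from the synthase, was 1.87-fold lower. Among transcription regulators, Cebpa and Cebpb were 2.01-fold and 1.80-fold higher, and Rxra had log2 ratios of 0.58 and -0.18 on its probe sets. Esrra was at least 1.02-fold lower (82.2 in control and 26.9 in mutant ovaries). It passed the minimum only through the control pool, so it could not have appeared as anything but lower. Srebf1 and Srebf2, the sterol and fatty acid regulators, named after their values were seen, had 0.41 and 0.41, with 1.32 on a second Srebf2 probe set.

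Beta-oxidation genes had a median of 0.13. Of 25 measured genes 2 reached 1.5-fold upward (8%) and 0 downward, beside 9.32% and 7.9% of all measured genes. The 2 were Crat, carnitine acetyltransferase, at least 2.62-fold higher (26.8 and 211), and Acaa1a, a peroxisomal thiolase, at 1.55-fold. Their second probe sets had log2 ratios of 0.36 and 0.30. The brighter Crat probe set passed the minimum only through the mutant pool. Slc25a20 had log2 ratios of 0.53 and -0.28 on its probe sets and Amacr had 0.37. For uptake and lipolysis the median was 0.29 over 14 genes. Of these, 4 were at least 1.5-fold higher by log2 ratio (28.6%, beside 9.32% of all measured genes). Scarb1, the lipoprotein receptor, was 5.18-fold higher, Angptl4 1.52-fold and Lipg at least 1.31-fold. The brightest Lipg probe set passed the minimum only through the mutant pool. Lipa, the lysosomal lipase, was 1.58-fold higher on its brightest probe set, and its others had log2 ratios from -0.36 to 1.19. In the remaining glycerolipid and droplet genes the median was -0.04. G0s2, an inhibitor of Pnpla2, was 1.63-fold higher, and Gpat2 and Lpcat1 were 1.82-fold and 1.68-fold lower. Ces1d had a log2 ratio of 0.41 and passed the minimum only through the mutant pool.

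Cholesterol synthesis had a median of 0.52 over 17 measured genes. At 1.5-fold, 8 counted as higher (47.1%) and 0 as lower, beside 9.32% and 7.9% of all measured genes. Cyp51 and Msmo1 were 3.37-fold and 3.34-fold higher, Idi1 2.80-fold and Lss 2.51-fold, with other probe sets of Lss at 0.40 and 0.86 on the log2 scale. Steroid hormone synthesis, which shares Scarb1 and Hsd17b7 with other lists, had a median of 1.93 over 10 genes, with Cyp17a1 at least 93.3-fold, Cyp11a1 at least 70.6-fold and Star 18.0-fold higher. A second Cyp11a1 probe set had a log2 ratio of 0.26. Cyp17a1 and the brighter Cyp11a1 probe set passed the minimum only through the mutant pool. Both medians lie above the 0.27 of the members, but no test of the difference was possible with 1 array per pool.

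**Figure D4:**
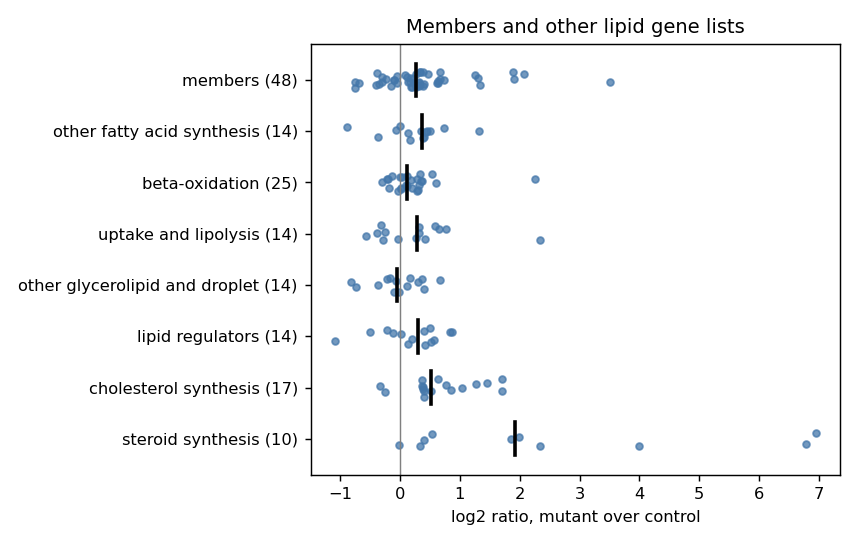
Log2 ratios of mutant over control (horizontal axis) for measured genes of the members and of 7 other lipid lists, 1 point per gene with vertical scatter added for legibility. Black bars are medians, which run from -0.04 for other glycerolipid and droplet genes to 1.93 for steroid synthesis, with 0.27 for the members.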

How the data were processed

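Ovary RNA from 8 mice per genotype was combined by the submitters into 1 pool, labelled with biotin and hybridised to 1 Affymetrix mouse array per pool, per the labels' protocols. The authors deposited probe-set signal intensity values on a linear scale, and the submitters' processing notes name GCOS. No settings of it were given. Both arrays had a mean of 500.003 after 2% of probe sets was trimmed at each end. The values were used as deposited. Gene names came from the platform annotation, and probe sets with several symbols (4 of them with a member's name) were left out of counts.

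Log2 ratios, counts, medians and motif matches were computed in Python 3.11.15 with pandas 2.3.3, and the ratio code was tested on simulated data. That test used a pseudocount of 1 and put differences only into probe sets at or above the 75th percentile (442.4). It did not cover the pseudocount of 22.2 or differences in dim probe sets. No p-value was computed, and precision is limited by there being 1 array per pool. All members at 1.5-fold are named with both signals, as are those whose probe sets disagree in sign with both past 1.2-fold. In each other lipid list up to 4 genes with the largest ratio in either direction are named, and sequences are shown for members at 2-fold. The members, lists and rules were chosen with earlier results of these data known. In all, 11 alternative settings were tried.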

Additional observations from a re-analysis of the deposited data

How the results depend on the processing

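The median of the members kept its sign under all 11 alternatives (0.18 to 0.32), while that of all measured genes ran from -0.07 to 0.02. The count at 2-fold higher was 7, of the same genes, under 8 alternatives, 6 when the minimum was set at the 75th percentile, and 4 with the mean over a gene's probe sets. These 4, Acsbg1, Fabp3, Fads2 and Acot11, stayed past 2-fold wherever they could be computed. Acsbg1, Fabp3 and Acot11 had only 1 measured probe set each, so settings that average or swap probe sets could not change them. Of the 4, only Fads2 was put to that check. With the dimmest measured probe set of each gene the count at 2-fold higher was again 7, but only the same 4 were shared. Elovl1, Agpat3 and Cpt1a then replaced Scd1, Fads1 and Elovl6. The dimmest probe sets of Elovl1 (28.1 and 93.5) and Agpat3 (43.4 and 111) passed the minimum only through the mutant pool. These 2 genes could not have appeared as anything but higher in that setting. The count at 1.5-fold lower, 3 in the main setting, was 6 with the dimmest probe sets. With no signal minimum it was 7 of 70 (beside 10.2% of all genes) and the count at 2-fold lower was 3 instead of 0 (4.29%, beside 2.42%), where genes under the minimum enter by construction. With the dimmest probe set, which passed the minimum only through the control pool, Scd1 turned to -0.91. Fads1 and Elovl6 came to 0.16 and 0.39. Of 189 recomputed ratios of 18 named genes, 178 stayed within the probe-set SD, and 11 moved by more. Part of the 178 could not move. A change of the signal minimum leaves the ratio of a probe set as it was, and averaging does the same for genes with 1 measured probe set. The sign changed in 5 of the 189: Scd1 as above, Fads3 (-0.60 with the dimmest probe set, -0.07 with the mean) and Scd2 (-0.31 and -0.02). Signals under 80.7 cannot be ordered, which limits Acsl6, Fabp7 and the 22 dim members. No paired analysis was possible because each genotype had 1 array.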

Other observations

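Cpt1b, the muscle form of the carnitine palmitoyltransferase, had no probe set of its own name. A probe set shared with neighbouring genes read 44.3 in control and 31.8 in mutant ovaries, both under the signal minimum. A probe set that names Acot9 together with Acot10 read 2091 and 1730, the same direction as Acot9 on its own. A probe set that names Acss2 with another gene was dim, at 18.5 and 35.6.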
